A study of Mus musculus with 4 samples.

Results

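Ion channel genes were examined in resting (G0) cultures of C2C12, an established line of mouse myoblasts. They were the genes on the array whose platform symbol belongs to a potassium channel (Kcn), sodium channel (Scn), voltage-gated calcium channel (Cacna, Cacnb, Cacng), ClC chloride channel or transporter (Clcn) or TRP cation channel family, with the glycine receptor gene Glrb taken by name. This gave 116 of the 12393 named genes. Each gene was read from 1 probe set, the brightest by its mean signal. The 53 genes with a mean log2 signal of at least 2.18 were tested, and the other 63 lay below that limit. The limit is the 25% point of all named genes. Just inside it stood Kcnj8 (mean 2.22) and Kcnk13 (2.23), and just outside it Kcnd3 and Kcnq1 (both 2.14).

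Cells of both groups were grown in medium with fetal calf serum and held for 48 hours in suspension in viscous methyl cellulose, which stops these cells from attaching and dividing. The 2 control arrays carry the treatment label control, and the 2 Wnt3A arrays are from cells given purified Wnt3A, the ligand of canonical β-catenin signalling, at 50 ng/ml. Replicates are named biological, with nothing on whether they were grown as separate cultures, so p-values measure the spread between these arrays, which may be partly technical. All 4 arrays are of 1 cell line. Signals are log2 values, a difference is Wnt3A minus control, and n = 2 arrays per group throughout.

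Ion channels are membrane proteins that let selected ions cross the cell membrane. Potassium channels set the resting potential of most cells. Calcium and sodium channels open on depolarisation, and many TRP channels pass calcium in response to chemical or mechanical stimuli. In skeletal muscle the L-type calcium channel of the transverse tubule is the voltage sensor that triggers calcium release from the sarcoplasmic reticulum. Potassium channels hyperpolarise myoblasts before they fuse.

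The cells carried the markers of their label: all 8 myoblast markers on the list (Myod1, Myf5, Cdh15, Des, Itga7, Ncam1, Cdh2 and Vcam1) had means above the limit. Several of them differed on Wnt3A replicate 2: Vcam1 read 8.47 and 7.65 on the control arrays and 6.41 and 1.82 on the Wnt3A arrays, the last below the limit, and Myod1 6.85 and 7.11 and then 6.32 and 3.62. Myf5 read 6.57 and 5.98 and then 7.77 and 7.65, with both Wnt3A arrays above both controls. Of 14 markers of differentiated muscle 13 were tested, and all 13 were lower with Wnt3A, with a median difference of -1.14. For 12 of them both Wnt3A arrays lay below both controls. Their mean signal over all 14 was 7.20 and 8.20 on the control arrays and 6.86 and 6.46 on the Wnt3A arrays, so control replicate 2 stood highest. Of the markers of other cell types, 5 of 8 leukocyte, 2 of 6 endothelial, 4 of 10 neuronal and 5 of 6 smooth muscle markers were above the limit. The defining leukocyte genes Ptprc and Itgam and endothelial Pecam1 and Cdh5 were below it, while Cd14 read 7.54 and 7.40 and then 6.16 and 6.46, and Csf1r 3.26 and 3.39 and then 3.53 and 5.19. The smooth muscle list had Myh11 below the limit, and Tagln read 8.68 and 8.38 and then 8.49 and 5.71, so that Wnt3A replicate 2 was again the low array. Kcnk2, Clcn3, Cacna2d1 and Cacng1 had their highest or lowest value on the same array, and the part of these markers in their differences was not tested. The array medians ran from 4.15 to 4.22.

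Few ion channel genes stood apart between the groups. In limma with Benjamini-Hochberg adjustment over all 9295 tested genes, 0 of the 53 ion channel genes passed an adjusted p of 0.05, as did 0.0% of all genes. Refitting without the intensity trend also gave 0. At an unadjusted p under 0.05 there were 2 members, Glrb and Kcnmb4, or 3.77% of them, beside 5.68% of all tested genes. Both were higher with Wnt3A, where all genes gave 2.46%, and 0 members were lower, where all genes gave 3.22%. At least 2-fold apart with no overlap of the groups were 2 members, Glrb and Clcn3, both higher (3.77%, beside 1.54% of all genes higher and 2.09% lower, 3.63% in all). Without Glrb, which entered by name with its difference already known, that count was 1. The count at an unadjusted p under 0.05 was then also 1, Kcnmb4.

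Wnt3A signals lay wholly above the controls in 7 members (13.2%, beside 14.7% of all tested genes) and wholly below them in 10 (18.9%, beside 19.8%), 17 in all (32.1%, beside 34.4%). By the mean alone, 3 members, Clcn3, Glrb and Kcnk2, were at least 2-fold higher (5.66%, beside 2.05% of all genes). Setting aside Glrb, which was taken by name, left 2 of these, and left 6 members wholly above the controls. With all 53 members counted, 1 was at least 2-fold lower (1.89%, beside 2.38%). The count of higher members was 1 without control replicate 1 or without Wnt3A replicate 2, 6 without control replicate 2 and 7 without Wnt3A replicate 1. The median difference of the 53 members was 0.02, with 28 higher (52.8%, beside 47.0% of all genes) and 25 lower, and that of all tested genes was -0.02. In 36 members (67.9%) the difference was under 0.25 in size, beside 60.2% of all genes. With the arrays scaled to their hybridization controls the median of all genes moved to 0.30 and that of the members to 0.34, and 48 members were then higher and 5 lower (Cacna1s, Cacna2d1, Cacnb1, Cacng1 and Clcn5). Only 13 members had a mean at or above the array medians, so most of these readings come from dim probe sets.

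**Figure D1:**
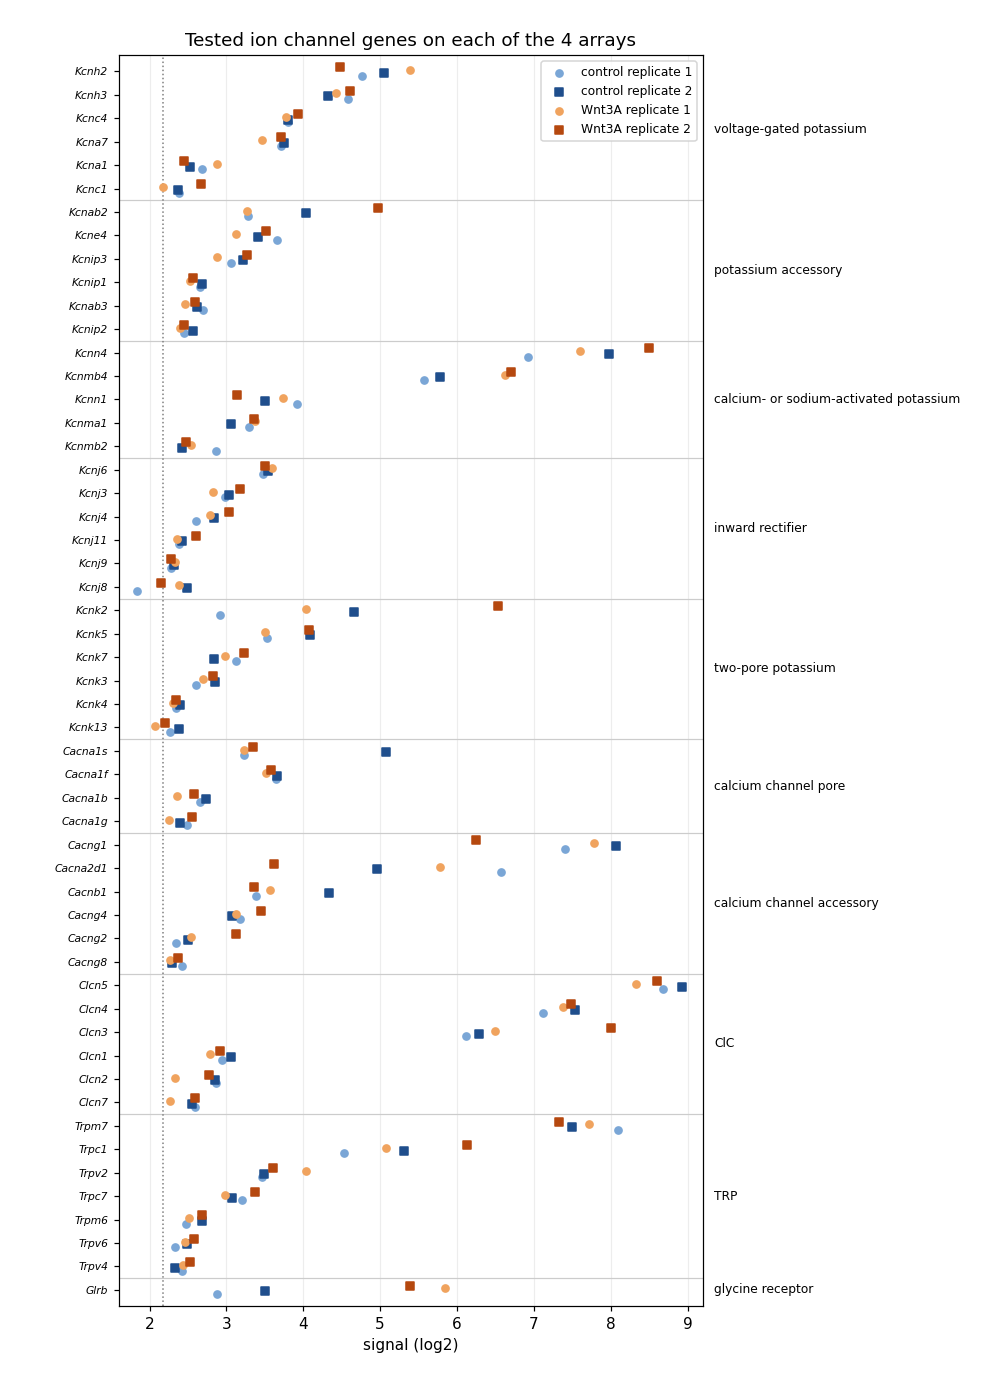
Log2 signal (horizontal axis) of the 53 tested ion channel genes on each of the 4 arrays, grouped by channel class; blue marks are control, orange marks Wnt3A, circles replicate 1 and squares replicate 2, and the dotted line is the limit of 2.18. Glrb and Kcnmb4 show 2 separate pairs of points, while the marks of most other genes lie together.

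Glrb stood widest apart. It encodes the β subunit of the glycine receptor, a chloride channel of inhibitory synapses, and this subunit anchors the receptor to gephyrin. Its signal was 2.88 and 3.51 on the control arrays and 5.84 and 5.39 on the Wnt3A arrays. Both Wnt3A arrays were far above both controls. The means were 3.20 ± 0.44 and 5.62 ± 0.32 (SD, n = 2), a difference of 2.42 (SE 0.32, 95% confidence interval 1.58 to 3.26), or 5.35-fold. Its adjusted p in limma was 0.325, the lowest of the members, and the difference ran from 2.11 to 2.73 as each array was left out. It passed with the replicate number as a block (adjusted p = 0.0339, where 0.893% of all genes passed) and after scaling to the hybridization controls (adjusted p = 0.0051). Of the genes of the ligand-binding α subunits, Glra1, Glra3 and Glra4 were looked up after the values of Glrb were seen. These were below the limit on all 4 arrays, between 1.28 and 1.88. Glra2 was not among the named genes of the array, so its signal is not known. Of 10 neuronal markers 6 were below the limit (Snap25, Syt1, Nefl, Nefm, Elavl4 and Gap43), and the mean of the list was 2.70 and 2.99 on the control arrays and 2.99 and 3.13 on the Wnt3A arrays. The other 4 had a median difference of 0.64, with 3 higher. Syn1 was above both controls on both Wnt3A arrays (3.03 and 3.50, then 3.77 and 4.49). Tubb3 differed by 1.04 through Wnt3A replicate 2, and Rbfox1 by 0.42. Stmn2 was bright, at 10.21 and 9.49 in the controls against 9.84 and 8.79 after Wnt3A, and differed by -0.54. The part of these markers in the difference of Glrb was not tested.

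Among calcium-activated potassium channels both Wnt3A arrays lay above both controls for 2 genes, Kcnmb4 and Kcnma1, widely so only for Kcnmb4. Kcnmb4, the neuronal-type β subunit that slows the gating of the large-conductance (BK) channel, read 5.57 and 5.78 in the controls against 6.62 and 6.70 after Wnt3A. The groups were apart by several times the spread inside them. The difference was 0.99 (SE 0.21, 95% confidence interval 0.43 to 1.54, limma adjusted p = 0.572), or 1.98-fold. It is just short of the 2-fold line here, but past it after quantile normalization (1.002) and after scaling to the hybridization controls (1.30), each of which takes the members 2-fold apart without overlap from 2 to 3. The difference ran from 0.88 to 1.09 with 1 array left out.

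The pore subunit of the same channel, Kcnma1, was dim, with both Wnt3A arrays just above both controls. It read 3.30 and 3.06 in the controls against 3.37 and 3.36 after Wnt3A, a difference of 0.19 (95% confidence interval -0.29 to 0.66). It was 0.07 if control replicate 2 is left out and 0.30 if control replicate 1 is. The mean of its probe sets gave 0.06. Its other probe set was below the limit, with a mean of 1.32. Of the other BK β subunits Kcnmb2 differed by -0.13, and Kcnmb1 was below the limit on every array (1.84 and 1.74 in control, 1.83 and 1.89 with Wnt3A).

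Kcnn4, the intermediate-conductance channel that drives calcium entry and proliferation in many non-excitable cells, had one of the brighter probe sets. It read 6.93 and 7.97 in the controls against 7.60 and 8.49 after Wnt3A. The groups overlapped, since control replicate 2 lay above Wnt3A replicate 1. Its difference was 0.60 (SE 0.48, 95% confidence interval -0.67 to 1.86), and came to 0.07 if control replicate 1 is left out, 0.15 if Wnt3A replicate 2 is, 1.12 if control replicate 2 is and 1.04 if Wnt3A replicate 1 is. A second probe set gave 0.59. The small-conductance channel gene Kcnn1 differed by -0.27 (0.01 on its second probe set), and Kcnn3 was below the limit at 2.10 and 1.95 in the controls against 2.11 and 2.09 after Wnt3A.

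Among tandem-pore potassium channels, which carry background potassium current, Kcnk2 was the exception to a flat class. It encodes TREK, a channel opened by membrane stretch, heat and lipids. Its signal was 2.91 and 4.66 in the controls against 4.04 and 6.53 after Wnt3A. In each group replicate 2 was far above replicate 1, and control replicate 2 exceeded Wnt3A replicate 1. The difference was 1.50 (SE 1.01, 95% confidence interval -1.16 to 4.16, limma adjusted p = 0.928), or 2.83-fold; it came to 0.25 if Wnt3A replicate 2 is left out, 0.63 if control replicate 1 is, 2.37 if control replicate 2 is and 2.75 if Wnt3A replicate 1 is. The other 5 tested members of the class (Kcnk3, Kcnk4, Kcnk5, Kcnk7 and Kcnk13) differed by -0.20 to 0.13.

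**Figure D2:**
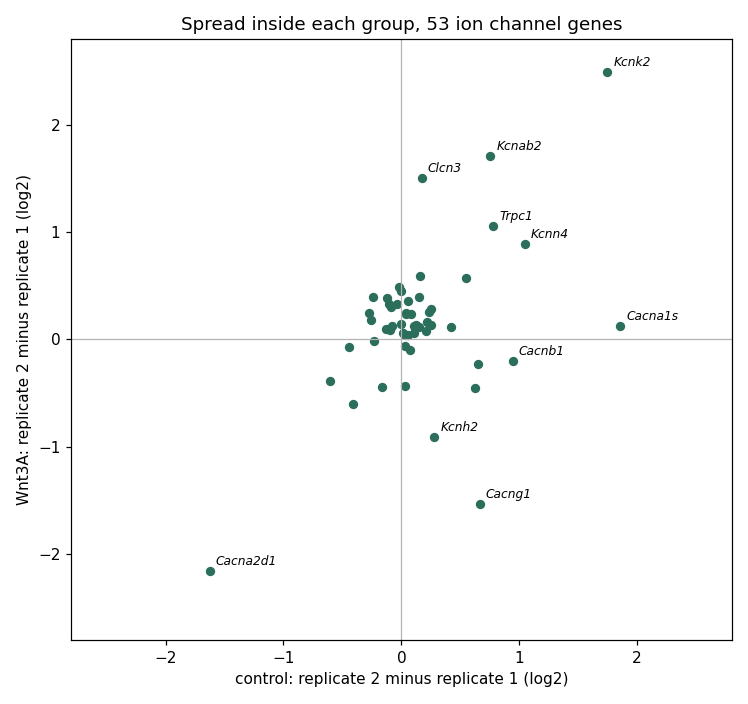
Replicate 2 minus replicate 1 inside the control group (horizontal axis) and inside the Wnt3A group (vertical axis), both in log2, for the 53 tested ion channel genes, 1 point each. Kcnk2 lies far to the upper right and Cacna2d1 to the lower left, where the replicates differ the same way in both groups, while Cacna1s differs between the controls only.

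The sequences before the starts of these genes are shown because canonical Wnt signalling acts on genes through β-catenin and its TCF/LEF partners. RefSeq promoters of build GRCm38.p6 were listed for 45 of the 53 tested genes, 63 starts in all. The 250 bases before each start were searched on both strands for the TCF/LEF word, which is CTTTG followed by 2 bases that are each A or T. The word was present in 8 of these 63 windows (12.7%), beside 14.8% of all 32851 windows. These windows belong to Clcn5, Kcne4, Kcnk2 (2 windows), Kcnmb4, Trpc7, Trpv4 and Trpv6. The differences of these genes were -0.35, -0.22, 1.50, 0.99, 0.03, 0.11 and 0.12 in that order. The myogenic E-box word CAGCTG, which reads the same on both strands, was present in 15 (23.8%), beside 13.0% of all windows. A gene with several starts gives several windows, so both words were counted by window and not by gene. Whether these shares differ from those of all windows was not tested. A match is a string of letters and not a measured binding site. Each sequence is the 250 bases before the start on the gene's strand, 5′ to 3′, at chr3:80913661-80913910 (minus strand), chr10:116473524-116473773 (minus), chr1:189402274-189402523 (minus, the start farthest upstream of 4) and chr1:136052561-136052810 (plus). Capitals mark the TCF/LEF word in Kcnmb4 and Kcnk2 and the E-box word in Cacna1s; Glrb has none.
Glrb: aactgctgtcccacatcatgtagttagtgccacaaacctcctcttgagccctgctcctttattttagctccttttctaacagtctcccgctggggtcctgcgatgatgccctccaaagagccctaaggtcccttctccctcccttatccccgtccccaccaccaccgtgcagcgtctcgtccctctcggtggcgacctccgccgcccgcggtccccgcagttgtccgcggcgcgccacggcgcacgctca
Kcnmb4: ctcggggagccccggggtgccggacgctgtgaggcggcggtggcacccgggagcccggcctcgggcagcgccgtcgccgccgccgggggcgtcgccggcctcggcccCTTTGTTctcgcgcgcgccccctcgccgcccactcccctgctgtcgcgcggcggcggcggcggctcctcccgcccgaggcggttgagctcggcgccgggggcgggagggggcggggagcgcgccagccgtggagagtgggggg
Kcnk2: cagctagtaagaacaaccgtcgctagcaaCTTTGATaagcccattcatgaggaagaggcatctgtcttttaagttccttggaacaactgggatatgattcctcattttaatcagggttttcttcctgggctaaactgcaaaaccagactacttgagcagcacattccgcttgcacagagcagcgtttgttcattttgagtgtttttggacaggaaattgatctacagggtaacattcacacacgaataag
Cacna1s: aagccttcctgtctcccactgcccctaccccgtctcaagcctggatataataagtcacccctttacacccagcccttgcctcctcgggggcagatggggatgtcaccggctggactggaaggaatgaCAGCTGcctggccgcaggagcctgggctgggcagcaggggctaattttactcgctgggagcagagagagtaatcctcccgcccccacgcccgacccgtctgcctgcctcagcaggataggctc
Glrb, the gene with the widest difference, held no TCF/LEF word in this window. Kcnmb4 held CTTTGTT, beginning 143 bases before the start. Kcnk2 held CTTTGAT, beginning 221 bases before the start, and Cacna1s held CAGCTG, beginning 123 bases before it.

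Voltage-gated potassium channel genes differed little between the groups. Of 20 on the array 6 were tested, Kcnh2 and Kcnh3 with means above the array medians, with differences between -0.15 and 0.06. Kcnh2, the ERG channel of cardiac repolarisation, read 4.77 and 5.05 in the controls against 5.39 and 4.48 after Wnt3A. The controls lay between the Wnt3A arrays, and the difference was 0.02 (SE 0.37), which was -0.43 without Wnt3A replicate 1 and 0.48 without Wnt3A replicate 2. Kcnc4, a fast delayed rectifier of the Shaw type, read 3.80 on both control arrays and 3.78 and 3.93 with Wnt3A, a difference of 0.06 (-0.016 without Wnt3A replicate 2, and -0.15 on its second probe set). The other 14 members had means between 1.12 and 2.14. Among them Kcnh1, the ether-à-go-go channel described in fusing human myoblasts, read 2.05 and 2.03 in the controls against 2.0 and 2.30 after Wnt3A. Kcna5 read 1.22 and 1.06 and then 0.94 and 1.24, and Kcnq5 1.07 and 1.22 and then 1.30 and 1.24. The groups overlapped for Kcnh1 and Kcna5, and for Kcnq5 the Wnt3A arrays were just above the controls.

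The accessory genes of these channels gave 6 tested members with differences between -0.22 (Kcne4) and 0.46 (Kcnab2). Kcnab2, a cytoplasmic β subunit related to aldo-keto reductases and singled out after its values were seen, read 3.28 and 4.03 in the controls against 3.26 and 4.97 after Wnt3A, so replicate 2 was above replicate 1 in both groups and the groups overlapped. Both Wnt3A arrays were below both controls for Kcnab3, Kcnip1 and Kcnip2, with differences of -0.13, -0.12 and -0.09, all of which turned to higher after scaling to the hybridization controls. Kcnip genes encode calcium-binding partners of A-type channels. Kcne1 and Kcne3 were below the limit. Kcne1 read 1.11 and 1.30 in the controls against 0.99 and 1.13 after Wnt3A, and Kcne3 1.21 and 1.20 and then 1.18 and 1.17.

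Inward rectifiers, which hold muscle fibres at rest, were flat: 6 were tested, with differences from -0.01 to 0.19. Kcnj11, the pore of the ATP-sensitive channel, read 2.38 and 2.42 in the controls against 2.36 and 2.61 after Wnt3A (difference 0.08, 95% confidence interval -0.34 to 0.51). Kcnj8, its vascular relative, read 1.84 and 2.49 and then 2.39 and 2.15. The groups overlapped for both, and leaving out 1 array turned the sign: Kcnj11 gave -0.041 without Wnt3A replicate 2, and Kcnj8 gave -0.22 without control replicate 1. Kcnj2, the strong inward rectifier of skeletal muscle and of myoblasts about to fuse, was below the limit at 1.37 and 1.32 in the controls against 1.22 and 1.66 after Wnt3A. Kcnj12 read 2.15 and 1.98 in the controls against 1.73 and 1.89 after Wnt3A. Both of its Wnt3A arrays were below both controls, but all lay under the limit.

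The 4 tested subunit genes of the skeletal muscle L-type calcium channel were lower with Wnt3A by the mean, and in each the groups overlapped. Cacna1s, its pore and voltage sensor, read 3.23 and 5.08 in the controls against 3.23 and 3.35 after Wnt3A. Control replicate 2 alone was high, and the groups touched at 3.23. The difference was -0.87 (SE 0.63, 95% confidence interval -2.53 to 0.80, limma adjusted p = 0.929) and it was 0.06 if control replicate 2 is left out and -1.79 if control replicate 1 is. Cacnb1, the β subunit that brings the pore to the membrane in muscle, read 3.39 and 4.33 in the controls against 3.57 and 3.36 after Wnt3A, a difference of -0.40 (SE 0.36) that was 0.08 if control replicate 2 is left out and -0.87 if control replicate 1 is. Control replicate 2 was again the highest array. The Cacnb1 probe set chosen is of a type prone to cross-hybridisation. Its other probe sets, below the limit, gave -0.03 and -0.09, and the mean of its probe sets gave -0.17.

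Cacng1, the γ subunit found in skeletal muscle, had a bright probe set. It read 7.41 and 8.07 in the controls against 7.78 and 6.24 after Wnt3A, a difference of -0.73 (SE 0.58, 95% confidence interval -2.24 to 0.78). Here Wnt3A replicate 2 was low, and without it the difference was 0.04; it was -1.50 if Wnt3A replicate 1 is left out and -0.40 if control replicate 2 is. Cacna2d1, the extracellular alpha2delta subunit, read 6.58 and 4.95 in the controls against 5.78 and 3.62 after Wnt3A, so that replicate 1 was above replicate 2 in both groups. Its difference was -1.06 (SE 0.91, 95% confidence interval -3.44 to 1.31), or 2.09-fold lower. It was 0.02 if Wnt3A replicate 2 is left out, -0.25 if control replicate 1 is, -1.88 if control replicate 2 is and -2.14 if Wnt3A replicate 1 is. A second probe set below the limit gave -0.34. These array patterns stand beside those of the differentiated muscle markers, of which control replicate 2 was above control replicate 1 in 13 of 13, by a median of 1.26. Cacna1s and Cacnb1 shared the high control replicate 2, Cacng1 to a smaller extent, and Cacna2d1 did not. The part of the muscle markers in these differences was not tested, and in bulk RNA fewer differentiating cells and less RNA per cell cannot be told apart.

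**Figure D3:**
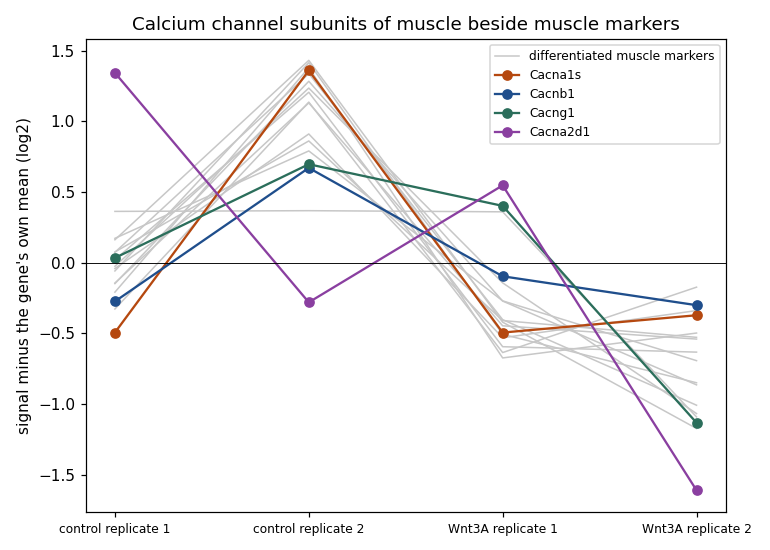
Signal on each array minus the gene's own mean over the 4 arrays (vertical axis, log2) for 4 calcium channel subunit genes (coloured) and the 13 tested markers of differentiated muscle (grey); lines only join the values of 1 gene. Cacna1s and Cacnb1 peak on control replicate 2 with the markers, and Cacna2d1 is highest on control replicate 1 and lowest on Wnt3A replicate 2.

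The remaining calcium channel genes were dim. All 4 tested pore genes were lower by the mean, by 0.03 (Cacna1g) to 0.87 (Cacna1s), though Cacna1b, Cacna1f and Cacna1g were higher after scaling to the hybridization controls. The T-type gene Cacna1g read 2.48 and 2.39 in the controls against 2.26 and 2.56 after Wnt3A, with overlap, and its difference was 0.12 without Wnt3A replicate 1. Cacna1b, which encodes the neuronal N-type pore, and Cacna1f, which encodes a retinal L-type pore, had both Wnt3A arrays below both controls. Their differences were -0.22 and -0.11. The other T-type gene of fusing myoblasts, Cacna1h, was below the limit at 1.77 and 1.70 in the controls against 1.83 and 2.15 after Wnt3A, and so was the cardiac Cacna1c at 1.45 on both controls and 1.58 and 1.53 with Wnt3A. Of the γ family Cacng2, an AMPA receptor partner, read 2.35 and 2.50 in the controls against 2.53 and 3.12 after Wnt3A, a difference of 0.40 (SE 0.25) that was 0.11 if Wnt3A replicate 2 is left out and 0.70 if Wnt3A replicate 1 is. Cacng6, the second γ subunit of skeletal muscle, was below the limit at 1.80 and 1.89 and then 1.42 and 1.67.

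Of 6 tested ClC genes 2 were higher and 4 lower with Wnt3A by the mean, and after scaling to the hybridization controls only Clcn5 was lower. Clcn3, a chloride-proton exchanger of endosomes and synaptic vesicles, read 6.12 and 6.29 in the controls against 6.50 and 8.01 after Wnt3A. Both Wnt3A arrays were above both controls, but replicate 1 only narrowly. The difference was 1.05 (SE 0.53, 95% confidence interval -0.34 to 2.44, limma adjusted p = 0.917), or 2.07-fold, and it was 0.30 if Wnt3A replicate 2 is left out and 1.80 if Wnt3A replicate 1 is. The probe set chosen is of a type that the array's maker marks as prone to cross-hybridisation. All 4 probe sets of the gene were above the limit, with differences from 1.05 to 1.41, and in 3 of the 4 the groups did not overlap. The dimmest of them read 2.38 and 2.36 in the controls against 3.26 and 4.29 after Wnt3A.

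Clcn5, the endosomal exchanger mutated in Dent disease, read 8.69 and 8.93 in the controls against 8.32 and 8.60 after Wnt3A. Both Wnt3A arrays were just below both controls. Its difference was -0.35 (SE 0.21, 95% confidence interval -0.90 to 0.20), and it was -0.21 if Wnt3A replicate 1 is left out and -0.22 if control replicate 2 is. The Clcn5 probe set chosen is also of the type prone to cross-hybridisation, and its other probe sets gave -0.50 and -0.10. Clcn4 read 7.12 and 7.54 in the controls against 7.37 and 7.49 after Wnt3A, a difference of 0.10 with overlap that was -0.11 without control replicate 1. Clcn1, the chloride channel that stabilises the muscle fibre membrane, was dim at 2.94 and 3.06 in the controls against 2.79 and 2.92 after Wnt3A, and Clcn2 read 2.86 on both controls and 2.33 and 2.78 with Wnt3A. Both genes were lower by the mean (-0.14 and -0.31, the former -0.08 if control replicate 2 or Wnt3A replicate 1 is left out, the latter -0.08 if Wnt3A replicate 1 is left out and -0.53 if Wnt3A replicate 2 is), but higher after scaling to the hybridization controls.

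**Figure D4:**
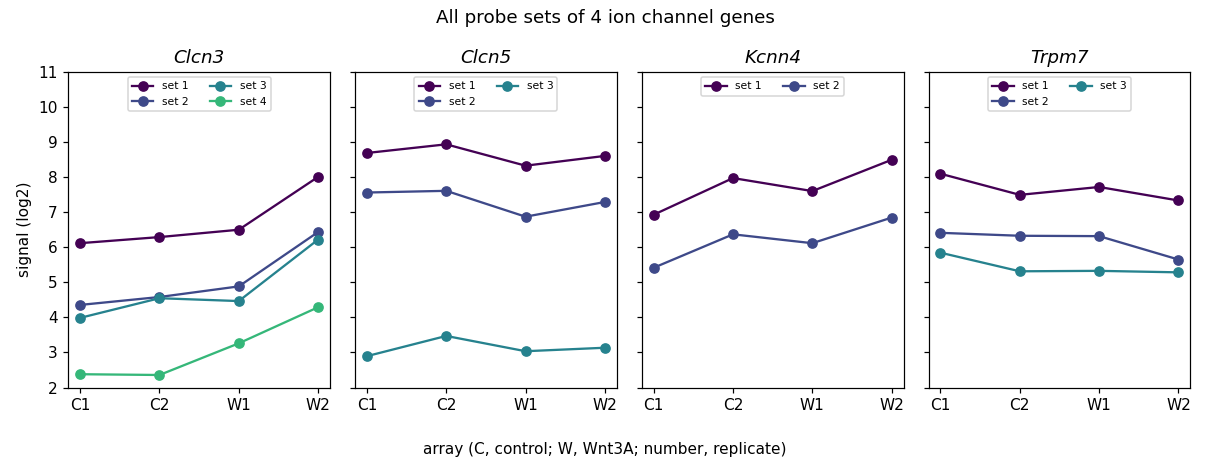
Log2 signal (vertical axis) of every probe set of Clcn3, Clcn5, Kcnn4 and Trpm7 on the 4 arrays (C, control; W, Wnt3A; the number is the replicate); lines join the values of 1 probe set. The 4 probe sets of Clcn3 all reach their highest value on Wnt3A replicate 2, and the 2 of Kcnn4 run in parallel.

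Of 7 tested TRP channel genes 6 were higher with Wnt3A by the mean, beside 47.0% of all tested genes, with a median difference of 0.11 for the class. Of the 6, Trpm6, Trpc7 and Trpv6 were dim and differed by only 0.02, 0.03 and 0.12, with overlap of the groups. Trpc1, a calcium entry channel of myoblasts, read 4.53 and 5.31 in the controls against 5.08 and 6.13 after Wnt3A. The groups overlapped, with replicate 2 above replicate 1 in both. Its difference was 0.69 (SE 0.47, 95% confidence interval -0.55 to 1.93), which came to 0.16 if Wnt3A replicate 2 is left out, 0.30 if control replicate 1 is, 1.08 if control replicate 2 is and 1.22 if Wnt3A replicate 1 is. Its other probe set, below the limit, gave -0.19. Trpv2, a channel linked to growth factors and stretch, read 3.47 and 3.50 in the controls against 4.04 and 3.61 after Wnt3A. Both Wnt3A arrays were above both controls, by a mean of 0.34 (SE 0.23) that was 0.13 if Wnt3A replicate 1 is left out and 0.56 if Wnt3A replicate 2 is.

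Trpm7, a magnesium-permeable channel fused to a kinase, was the 1 tested TRP gene lower by the mean, a direction that turned after scaling to the hybridization controls. It read 8.10 and 7.49 in the controls against 7.72 and 7.33 after Wnt3A, a difference of -0.27 (95% confidence interval -1.04 to 0.50). It was 0.032 if control replicate 1 is left out, -0.57 if control replicate 2 is, -0.46 if Wnt3A replicate 1 is and -0.08 if Wnt3A replicate 2 is, and its 3 probe sets ran from -0.39 to -0.27. Trpv4, an osmosensor, read 2.43 and 2.33 and then 2.44 and 2.53, a difference of 0.11 that was 0.06 if control replicate 2 or Wnt3A replicate 2 is left out. Trpc4 and Trpc6 were below the limit. Trpc4 read 1.87 and 1.65 in the controls against 1.99 and 1.92 after Wnt3A, and Trpc6 1.04 and 1.11 and then 1.08 and 1.34.

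None of the 9 sodium channel genes on the array reached the limit. Their means ran from 1.21 to 2.0. Among all 63 members below the limit the means ran from 1.12 to 2.14, with a median of 1.67, and 0 were 2-fold apart. The highest single value was 2.66, for Trpc2 on a control array. Trpc2 read 2.66 and 2.19 in the controls against 1.83 and 1.57 after Wnt3A. Its difference of -0.73, without overlap, was the largest in size among the 63. Of these members 3 had 1 group mean at or above the limit: Trpc2 in control, and Cacng5 and Kcnd3 with Wnt3A. The 2 tested members with 1 group mean under the limit were Kcnj8 in control and Kcnk13 with Wnt3A.

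**Figure D5:**
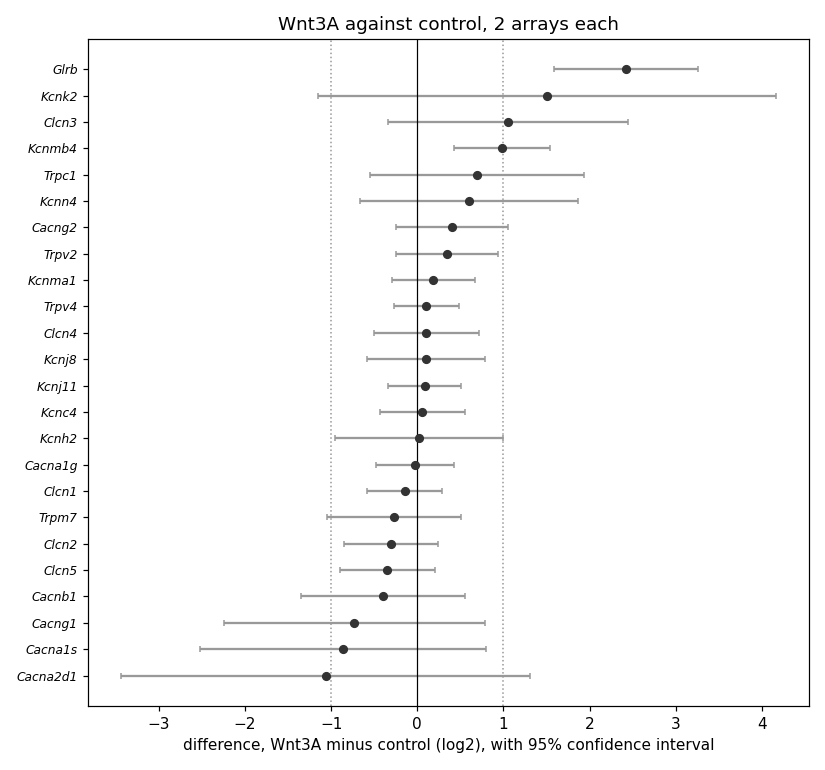
Difference between Wnt3A and control (horizontal axis, log2) with its 95% confidence interval from the moderated limma fit for 24 tested ion channel genes. These are the tested members taken by the naming rule given below. Kcnab2, also described by array, is not shown. Dotted lines mark 2-fold. The intervals of Glrb and Kcnmb4 are the ones that leave out 0, and those of Kcnk2 and Cacna2d1 are the widest.

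Channel genes of other families also differed little. Of a list of 165 genes for gap junction, purinergic, store-operated, intracellular release, nicotinic, glutamate, GABA, anoctamin and related channels, 110 were on the array and 55 were tested. None passed over all genes in limma. Of the 55, 4 had an unadjusted limma p under 0.05 (P2rx6, Catsper2, P2rx4 and Grik3), beside 5.68% of all tested genes. Wnt3A signals lay wholly above the controls in 7 of the 55, beside 14.7% of all tested genes. They lay wholly below them in 10, beside 19.8%. The median difference was -0.02, with 25 higher and 30 lower, and 0 were 2-fold apart. ATP-gated P2X receptor genes held 2 of the lowest p-values. P2rx6 read 4.31 and 4.63 in the controls against 3.73 and 3.40 after Wnt3A, a difference of -0.90 (SE 0.24, adjusted p = 0.664 in limma). P2rx4 read 8.50 and 8.27 and then 7.86 and 7.17, a difference of -0.87 (SE 0.30) that was -0.52 without Wnt3A replicate 2. In both genes the Wnt3A arrays were below both controls. P2rx3 went the other way from a dim control, at 2.09 and 1.88 and then 2.29 and 2.85. Lrrc8c, a subunit of the volume-regulated anion channel, read 4.90 and 5.47 in the controls against 5.86 and 5.76 after Wnt3A, a difference of 0.62 (SE 0.28) that was 0.33 if control replicate 1 is left out and 0.91 if control replicate 2 is. On dim signals Catsper2, a sperm calcium channel gene, read 3.05 and 2.98 and then 2.47 and 2.57 (difference -0.49), and the kainate receptor gene Grik3 2.22 and 2.16 and then 2.66 and 2.53 (difference 0.40). Ryr1, the calcium release channel that the L-type sensor opens, was looked up after its values were seen. It read 4.72 and 5.58 in the controls against 4.60 and 4.48 after Wnt3A, with control replicate 2 the highest array, as for Cacna1s.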

How the data were processed

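Expression in G0 C2C12 cells was measured on 4 Affymetrix arrays, 2 control and 2 Wnt3A, grouped by sample title (the treatment protocol has the same Wnt3A wording for all 4). For each array the authors deposited 1 value a probe set; per the submitters' processing notes GCOS and PLIER were used, with no version or role. Normalization, filters and build were not given in the sources used here. Values of 22690 probe sets, as deposited, were taken as log2 signals, a base read from their range; another base would rescale every difference. There are no detection calls, and depth is not defined for arrays, so their number limits the precision.

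Of the probe sets, 20380 had 1 gene symbol in the platform annotation, and 20351 of them matched RefSeq (GRCm38.p6) by Entrez ID; 691 named several genes and 1555 were not listed. Differences were fitted in R 4.3.3 with limma 3.58.1 (lmFit, eBayes with an intensity trend, group as the only term, two-sided, Benjamini-Hochberg over 9295 genes, 4.68 degrees of freedom). The procedure was run on simulated data with independent noise on each array, unlike the same-numbered arrays here. That run is no measure of its power for the differences reported above. Counts by size and overlap have no test.

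Members, gene lists and the naming rule were chosen with earlier results of these data known. The rule named members at least 2-fold apart without overlap, the 10 of lowest p, the 10 of highest mean and 36 genes of the muscle membrane, of which 30 were on the array and 16 tested, and 6 other channel genes of lowest p. Alternatives were quantile normalization, median centring, a block for replicate number, scaling to 18 hybridization control probe sets, no filter, the dimmer 50% left out, the mean of probe sets, no trend, and each array left out.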

Additional observations from a re-analysis of the deposited data

How the results depend on the processing

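No member was called in the main fit. Leaving out 1 array leaves 1 array in a group, so calls from those fits were not read, only the differences. Of 342 recomputed single-gene differences 321 kept their direction and side of the threshold, 19 turned sign and 2, both of Glrb, passed. The replicate number as a block gave 1 called member, Glrb (adjusted p = 0.0339 in limma), and 83 of all genes (0.893%); deviations of same-numbered arrays correlated at r = 0.48 over all tested genes, but with 2 pairs and no word in the labels the numbers were not taken to pair the arrays. Scaling to hybridization controls also gave 1 called member, Glrb (2.74, adjusted p = 0.0051), with 5 members at least 2-fold higher and 0 lower, a median of 0.34, and 0.30 for the other channel genes; it turned Cacna1g to 0.29, Clcn1 to 0.17, Clcn2 to 0.011 and Trpm7 to 0.049. With the dimmer 50% left out, which keeps 10 members, 1 was 2-fold apart without overlap and 1 at least 2-fold higher, and the other channel genes had a median of 0.18. The mean of probe sets gave 0 members at least 2-fold lower and Kcnc4 at -0.045.

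With 1 array left out, members at least 2-fold higher ran from 1 to 7 and lower from 0 to 2, and medians from -0.04 to 0.10 (other channel genes -0.12 to 0.08). Differences turned within these ranges: Cacna1g -0.18 to 0.12, Cacna1s -1.79 to 0.061, Cacna2d1 -2.14 to 0.016, Cacnb1 -0.87 to 0.076, Cacng1 -1.50 to 0.037, Clcn4 -0.11 to 0.32, Kcnc4 -0.016 to 0.13, Kcnh2 -0.43 to 0.48, Kcnj11 -0.041 to 0.21, Kcnj8 -0.22 to 0.43 and Trpm7 -0.57 to 0.032. The count of members 2-fold apart without overlap was not taken with 1 array left out, since 1 array against 2 meets it more easily. The cause of these shifts was not tested. Signals near the limit of 2.18 cannot show a small difference.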
